A study of Drosophila melanogaster with 2 samples.

Results

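HeT-A is the main retrotransposon of fly chromosome ends, and HeT-Tag insertions are short pieces of HeT-A sequence that lie between longer copies. The insertions described here are all rows of the deposited lists whose name begins with HeT-A or HeT-Tag. There were 22 of them, 16 HeT-A and 6 HeT-Tag, among 296 features (genes, single transposon insertions and strands of piRNA clusters) listed with either read treatment. With uniquely mapped reads 10 of the 22 were listed, and all 22 were listed when reads with up to 10 mappings were counted. None (0) was in a list of lower features.

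RNA was sequenced from ovaries of *Drosophila melanogaster* homozygous for z3-5967, a mutation of CG5508 (minotaur, mino), and from ovaries heterozygous for the same mutation, both from flies 3 to 5 days old kept at 25 °C. With 1 library per genotype, none of the differences could be checked against replicates, and both groups carry at least 1 mutant allele. The strain labels write the gene as GC5508, which was read as CG5508. The lists hold features that passed the authors' test, and absence from a list does not mean that a feature was unchanged. Per-library columns of the lists with up to 10 mappings are headed zucMUT and zucCD, names that match neither library, and that these lists compare the same libraries is inferred from their values and stated by no label. Mino itself was not listed, which leaves the mutation unchecked in these values.

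Drosophila has no telomerase. Its chromosome ends are maintained by HeT-A, TART and TAHRE, non-LTR retrotransposons that insert at the end of the chromosome and form head-to-tail arrays. HeT-A encodes a Gag protein and no reverse transcriptase of its own. Its promoter lies at the 3′ end of the element and drives the neighbour downstream, so a HeT-A transcript can begin with a short tag of the copy upstream of it. In the germline, piRNAs (small RNAs bound by Piwi proteins) repress these elements, and the study's title places minotaur in the making of primary piRNAs.

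All 22 listed insertions lay in 2 arrays of the dm6 genome build. On chromosome 4, 16 of them lay between 1274638 and 1320140, all on the minus strand, and on the X chromosome 6 lay between 103614 and 122492, all on the plus strand. These strands put the 5′ end of every copy towards the chromosome end. Of the 27 HeT-A insertions annotated in dm6, 24 belong to these arrays, and 16 of the 24 were listed. The 3 others, among them HeT-A{}6532 on 2R with 6084 bases, were in no list. Whether the authors counted them is not known from the lists. Of the 15 array copies of at least 1 kb, 14 were listed with up to 10 mappings and 8 with uniquely mapped reads. HeT-A{}6270, 1974 bases long, was the copy of that size in no list. The 7 other array copies in no list were 20 to 784 bases long. Of 23 annotated HeT-Tag insertions, which are 6 to 78 bases long and all on chromosome 4, 6 were listed. None (0) of the 14 annotated TART insertions was listed. Among them TART-C{}6275, 989 bases long, lies between 2 listed HeT-A copies, and TART-A{}6261, 12349 bases long, adjoins another. Whether the authors counted the TART insertions is not known from the lists either. TAHRE has no insertion of that name in the annotation used.

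**Figure D1:**
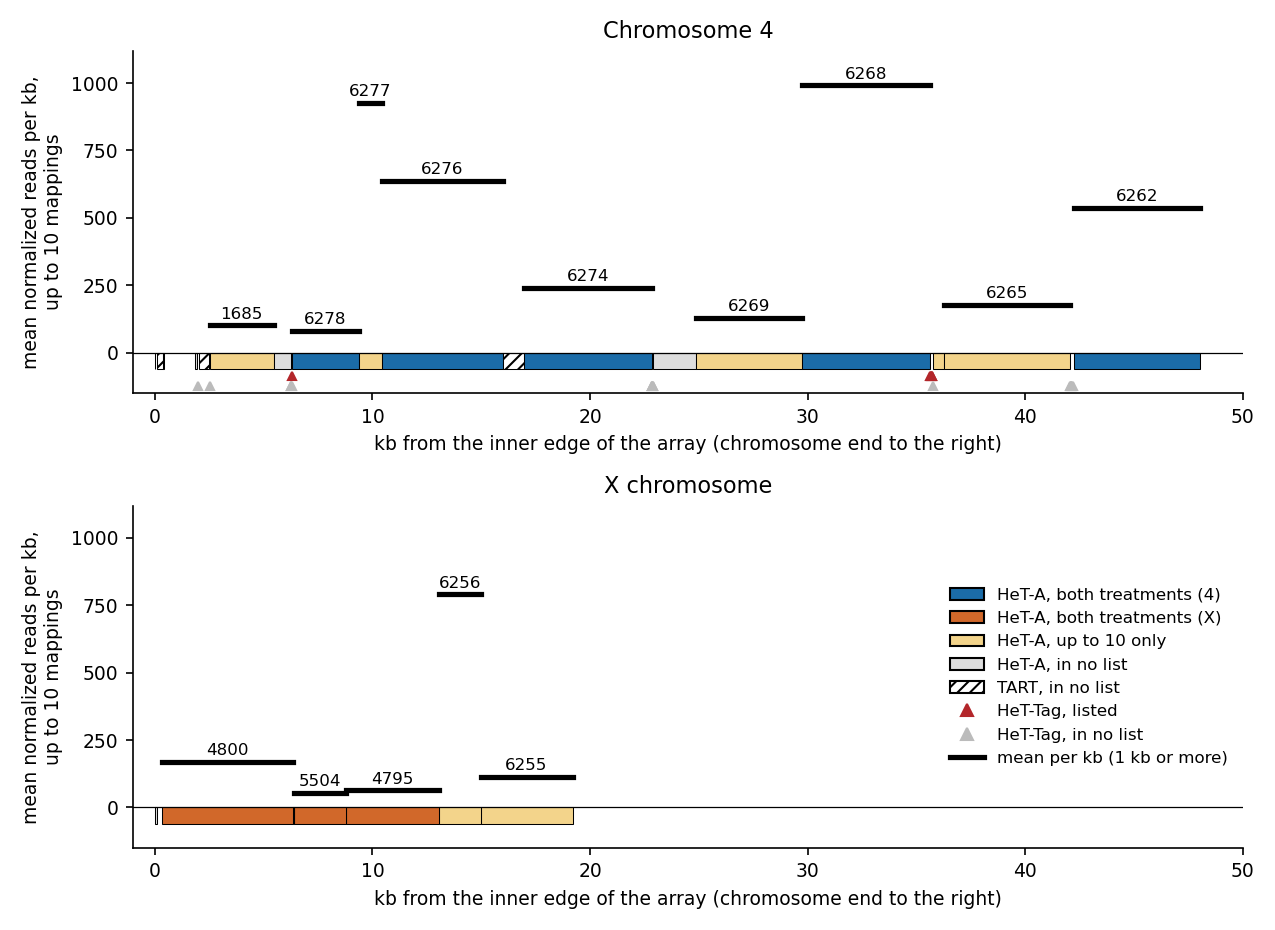
Annotated insertions of the chromosome 4 and X arrays, drawn by distance in kb from the inner edge of each array. Boxes under the axis are insertions, triangles are HeT-Tag insertions, and black lines give the authors' mean level per kb with up to 10 mappings for HeT-A copies of at least 1 kb, from 53.3 for HeT-A{}5504 to 991 for HeT-A{}6268. TART copies beyond the last HeT-A copy of chromosome 4 are not drawn.

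Every listed HeT-A copy was higher in the homozygous library. Levels with uniquely mapped reads are normalized read counts, and an interval in parentheses after a fold is an exact 95% interval on the reads, which covers counting error only and compares these 2 libraries. HeT-A{}6276 (FBti0102119, chromosome 4 from 1282540 to 1288109) had 6299 normalized reads in the homozygous library, against 116 in the heterozygous library. HeT-A{}6268 (FBti0102111, chromosome 4 from 1301834 to 1307750) had 6039.9 in the homozygous library, against 53.2 in the heterozygous library. Their homozygous levels were close, while the heterozygous library held 100 reads of HeT-A{}6276 and 46 reads of HeT-A{}6268. Their folds of 54.5 (44.7 to 67.0) for HeT-A{}6276 and 114 (85.0 to 155) for HeT-A{}6268 had intervals that do not overlap.

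The other long copies had far fewer unique reads. HeT-A{}6262, the outermost HeT-A copy of the chromosome 4 array, had 809 normalized reads in the homozygous library, against 26.6 in the heterozygous library, a fold of 30.4 (20.2 to 48.2). HeT-A{}6274 had 745 in the homozygous library, against 10.4 in the heterozygous library, a fold of 71.6 (37.5 to 157). HeT-A{}4800 on the X chromosome (FBti0062861, from 116487 to 122492) had 714 in the homozygous library, against 12.7 in the heterozygous library, a fold of 56.1 (31.2 to 113). Per kb of annotated length these 3 copies had close homozygous levels of unique reads, 140, 128 and 119 in the order given. With up to 10 mappings the authors' means over both libraries were 538, 239 and 168 per kb in the same order. The closeness thus held for unique reads only, and how much of each copy unique reads can reach was not measured. The intervals of the folds of these 3 copies overlap one another.

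Copies of 1 to 5 kb had smaller folds with unique reads. HeT-A{}4795 (X chromosome) had 371 normalized reads in the homozygous library, against 19.7 in the heterozygous library, a fold of 18.9 (11.6 to 32.7). HeT-A{}6278 (chromosome 4) had 91.7 in the homozygous library, against 5.78 in the heterozygous library, a fold of 15.9 (6.58 to 49.8). HeT-A{}5504 (X chromosome) had 194 in the homozygous library, against 40.5 in the heterozygous library, a fold of 4.79 (3.34 to 7.04). HeT-A{}5504 stood apart from most others, since its interval overlapped that of 1 other insertion, HeT-A{}6278, and lay apart from those of the remaining 8. Per kb, its heterozygous level of 17.1 normalized reads was exceeded by HeT-A{}6276 alone among the copies of at least 1 kb, at 20.8. Over all 45 pairs of the 10 insertions, 14 pairs had intervals that do not overlap.

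The shortest listed insertions had 1 heterozygous read each, so their folds are poorly bounded. HeT-A{}6253, 35 bases on the X chromosome, had 125 normalized reads (144 reads) in the homozygous library, against 1.16 in the heterozygous library, a fold of 108 (19.0 to 4282). HeT-Tag{}6279, 24 bases on chromosome 4, had 80.4 (93 reads) in the homozygous library, against 1.16 in the heterozygous library, a fold of 69.5 (12.2 to 2776). HeT-Tag{}6279 adjoins HeT-A{}6278, which had 106 homozygous reads over 3045 bases, while HeT-A{}6253 adjoins HeT-A{}5504 and lies 44 bases from HeT-A{}4800. A read that crosses such a border may be counted for both insertions, so the reads of these short insertions are uncertain.

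**Figure D2:**
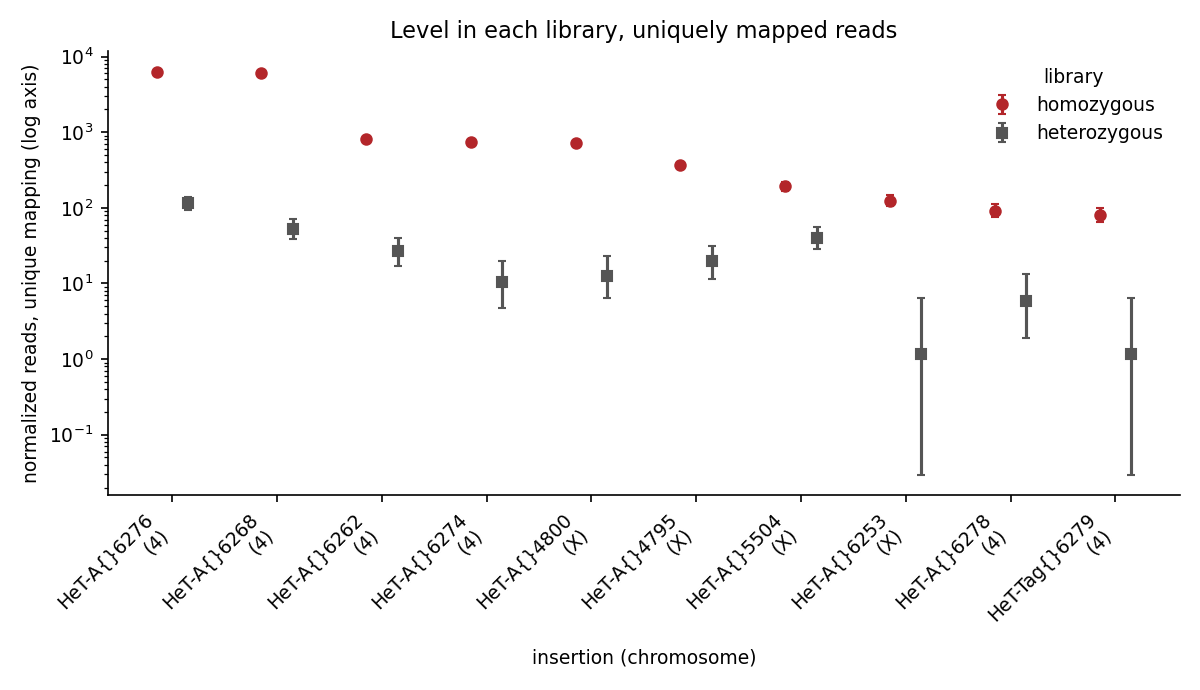
Normalized reads with unique mapping (log axis) of the 10 listed insertions in the homozygous (circles) and heterozygous (squares) library, 1 library each. Bars are exact 95% Poisson intervals that cover counting error only. Homozygous levels run from 80.4 to 6299 and heterozygous levels from 1.16 to 116.

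Per kb of annotated length, HeT-A{}6276 and HeT-A{}6268 had 1131 and 1021 normalized reads in the homozygous library, against 20.8 and 8.99 in the heterozygous library. The other HeT-A copies of at least 1 kb had 30.1 to 140 per kb in the homozygous library, against 1.78 to 17.1 per kb in the heterozygous library. Together the 9 HeT-A copies held 17797 homozygous reads, 20.8% (exact interval 20.5 to 21.1) of the 85648 homozygous reads in listed features. In the heterozygous library they held 247 reads, 0.363% (exact interval 0.320 to 0.412) of the 67961 reads in listed features. Both shares depend on which features are listed. A single other feature, CR41602, which was lower in the homozygous library, held 18553 of the homozygous and 30257 of the heterozygous reads. Of the unique HeT-A reads, HeT-A{}6276 and HeT-A{}6268 made up 80.2% in the homozygous library and 59.1% in the heterozygous library. With up to 10 mappings the authors' means over both libraries were 5866 for HeT-A{}6268, 3543 for HeT-A{}6276 and 3120 for HeT-A{}6262. The shares thus hold for unique reads only. The total depth of the libraries is not known from the lists, so all these percentages are shares of listed reads, in which a read may be counted for more than 1 feature.

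At least a 10-fold rise was reached by 9 of the 10 insertions with unique reads, all but HeT-A{}5504. Among all 80 features listed with unique reads, these insertions included, 32.5% were at least 10-fold higher. The 80 include 23 lower features, and 26 of the 57 higher ones met this limit. The authors' test decides what is listed, and at a low mean only a large fold can pass it. HeT-A{}6253, HeT-A{}6278 and HeT-Tag{}6279, with means of 40.8 to 62.8, thus needed a large fold to be listed at all. The median fold was 54.5 over the 9 HeT-A copies and 9.82 over the 10 listed insertions of other families, 4 of which were at least 10-fold higher. The highest fold was 114 among the HeT-A copies and 118 among the insertions of other families. Closest to the HeT-A median among the other listed features were Stalker2{}106, an LTR retrotransposon insertion, at 56.8-fold (76 homozygous reads, against 1 heterozygous read), and the genes gfA at 43.4-fold and CG34384 at 42.6-fold. The authors' adjusted p-values, from their deposited table and from 1 library per genotype, ran from 4.68e-56 for HeT-A{}6268 to 0.0572 for HeT-A{}5504.

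Length and fold went together with unique reads when copies under 1 kb were set aside. The 5 copies of at least 5 kb had folds of 30.4 to 114. The 3 copies of 1 to 5 kb had folds of 4.79 to 18.9. These folds did not overlap, but some of their counting intervals did. The interval of HeT-A{}6278 (6.58 to 49.8) overlapped those of HeT-A{}6274, HeT-A{}4800, HeT-A{}6276 and HeT-A{}6262. The interval of HeT-A{}4795 (11.6 to 32.7) overlapped those of HeT-A{}6262 and HeT-A{}4800. The other pairs across the classes lay apart, among them every such pair with HeT-A{}5504 or HeT-A{}6268. Spearman's rho between length and fold was 0.90 over these 8 copies and 0.45 over all 9, as a description of copies that share libraries and sequence. The folds of the same 8 copies also stayed apart by length with up to 10 mappings, a treatment that counts the unique reads of these copies again. Folds in the authors' deposited table were 33.0 to 71.3 for the 5 longer and 4.87 to 15.5 for the 3 shorter copies. With the copies listed only with up to 10 mappings added, the classes overlapped. In that table the 6 copies of at least 5 kb had folds of 26.3 to 71.3 and the 8 copies of 1 to 5 kb had folds of 4.87 to 80.2, and rho was 0.13 over these 14 copies. The 5 copies of 1 to 5 kb that were listed only with up to 10 mappings had folds of 23.3 to 80.2 there. The classes by length were chosen after these values were seen.

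**Figure D3:**
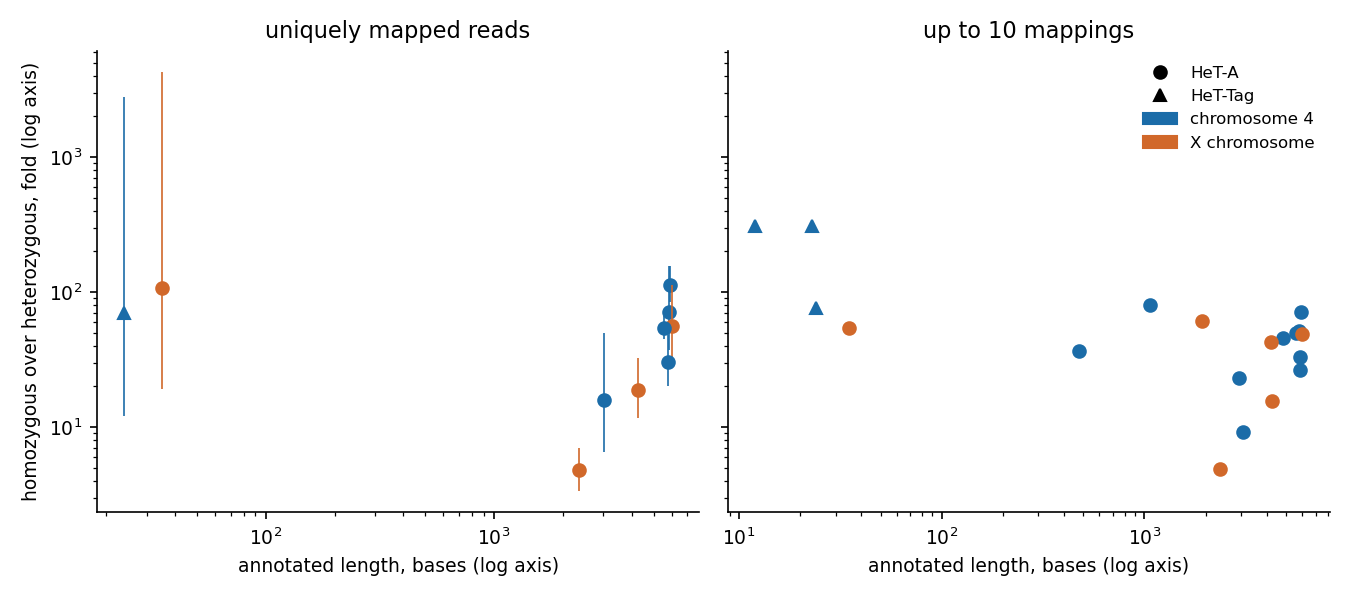
Homozygous over heterozygous fold (log axis) against annotated length in bases (log axis), for uniquely mapped reads (left, bars are exact 95% counting intervals) and for up to 10 mappings (right, the authors' folds without an interval). Colours give the chromosome and triangles are HeT-Tag. The 3 HeT-Tag insertions listed at 0 in the heterozygous library have no fold and are not drawn.

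The chromosome 4 and X arrays overlapped in their folds. With unique reads the 5 copies of chromosome 4 had folds of 15.9 to 114 with a median of 54.5. The 4 copies of the X chromosome had folds of 4.79 to 108 with a median of 37.5. The fold of 108 is that of HeT-A{}6253, 35 bases long with 1 heterozygous read. Without this copy, the 3 X copies of at least 1 kb had folds of 4.79 to 56.1 with a median of 18.9. All 5 copies of chromosome 4 were at least 1 kb long. Summed reads put chromosome 4 higher, with 16174 homozygous and 183 heterozygous reads, a ratio of 66.1 (57.1 to 76.9), against 1623 homozygous and 64 heterozygous reads on the X chromosome, a ratio of 19.0 (14.8 to 24.7). These sums rest on few copies. Without HeT-A{}6268 and HeT-A{}6276 the chromosome 4 ratio was 38.5 (27.8 to 54.8), and without HeT-A{}5504 the X ratio was 36.1 (25.0 to 54.1). Both omissions were chosen after the values were seen, by different rules. On chromosome 4 the 2 copies with most homozygous reads were left out, which together had a ratio of 73.1. On the X chromosome the copy with the smallest fold was left out. These choices lower the first ratio and raise the second, so the closeness of 38.5 and 36.1 is no evidence that the arrays are alike. With up to 10 mappings, the authors' deposited table gave a median fold of 41.2 over the 10 copies of chromosome 4. It was 45.6 over the 6 copies of the X chromosome. Over copies of at least 1 kb these medians were 45.8 on chromosome 4 and 42.5 on the X chromosome.

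Counting reads with up to 10 mappings raised the levels unequally. For the 10 insertions listed both ways, the authors' mean over both libraries was 1.01 to 7.46 times the mean with unique reads. The largest gain was that of HeT-A{}6262, with a mean of 3120 normalized reads in the authors' deposited table with up to 10 mappings and 418 with unique reads. HeT-A{}6278 gained 4.94 times and HeT-A{}6274 gained 3.70 times, while HeT-A{}6276 gained 1.10 times and HeT-A{}5504 gained 1.07 times. HeT-A{}6276 thus had nearly the same mean under both treatments, while unique reads made up the smaller part of the HeT-A{}6262 mean.

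Folds moved both ways. With up to 10 mappings 7 of the 10 folds were lower, and 7 of the 10 lay within the counting interval of the unique fold. The 3 outside it were HeT-A{}6268 at 71.3-fold in the authors' deposited table (114-fold with unique reads), HeT-A{}6274 at 33.0-fold (71.6-fold with unique reads) and HeT-A{}6262 at 51.8-fold (30.4-fold with unique reads). HeT-A{}5504 was at 4.87-fold there and again had the smallest fold. In all, 20 of the 22 insertions were at least 10-fold higher or listed at 0 in the heterozygous library, all but HeT-A{}6278 at 9.14-fold and HeT-A{}5504. Of all 292 features listed with up to 10 mappings, 51.4% met the same limit. The 292 include 21 lower features, and 150 of the 271 higher ones met it, as did 104 of the 162 listed insertions of other families. Here too, insertions with low means, such as HeT-Tag{}6291 at 31.1 and HeT-A{}6253 at 63.7, needed a large fold to be listed. The median fold in the authors' deposited table was 44.2 over 16 HeT-A copies and 14.3 over 161 insertions of other families with a finite fold. The highest was 80.2 among the HeT-A copies and 127 among those insertions of other families. A read with several mappings can be counted for more than 1 copy, so the copies are not separate measurements.

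**Figure D4:**
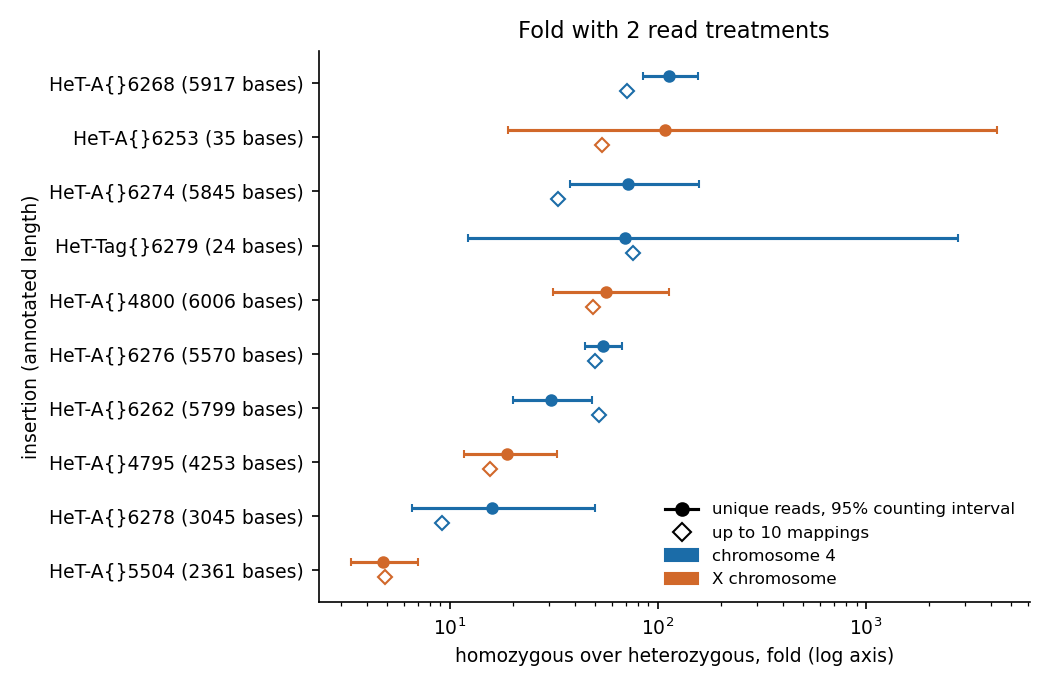
Homozygous over heterozygous fold (log axis) of the 10 insertions listed with both read treatments, with the annotated length of each. Filled circles with bars are unique reads with exact 95% counting intervals, open diamonds are the authors' folds with up to 10 mappings, and the diamonds of HeT-A{}6268, HeT-A{}6274 and HeT-A{}6262 lie outside the bars.

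The 7 HeT-A copies listed only with up to 10 mappings included some of the densest ones. HeT-A{}6277, 1065 bases long, had a mean of 988 normalized reads in the authors' deposited table, or 928 per kb, and rose 80.2-fold. HeT-A{}6256 on the X chromosome had a mean of 1512, or 790 per kb, and rose 61.1-fold. In the same table HeT-A{}6268 had the highest mean of all copies, 5866, or 991 per kb. The remaining copies in the list of up to 10 mappings alone rose less steeply, HeT-A{}6269 by 45.8-fold, HeT-A{}6255 by 42.5-fold, HeT-A{}6266 by 36.5-fold, HeT-A{}6265 by 26.3-fold and HeT-A{}1685 by 23.3-fold. In the chromosome 4 array HeT-A{}6277, HeT-A{}6276, HeT-A{}6268 and HeT-A{}6262 had means of 538 to 991 per kb and the other copies of at least 1 kb had 79.1 to 239 per kb. On the X chromosome the 4 copies of at least 1 kb other than HeT-A{}6256 had 53.3 to 168 per kb. The span of HeT-A{}1685 also holds 2 insertions of the DNA transposon 1360, neither of them listed, so its reads are uncertain.

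The HeT-Tag insertions listed only with up to 10 mappings form 1 block. The 133 bases between HeT-A{}6268 and HeT-A{}6266 hold 6 HeT-Tag insertions, and 5 of these were listed. Counted upstream from the 5′ end of HeT-A{}6268, HeT-Tag{}6288 (bases 1 to 17) had a mean of 222 normalized reads over both libraries in the authors' deposited table. HeT-Tag{}6289 (bases 18 to 40) had a mean of 357 and HeT-Tag{}6290 (bases 41 to 52) had 356. Beyond base 52 the means were lower, 31.1 for HeT-Tag{}6291 (bases 53 to 62) and 31.9 for HeT-Tag{}6292 (bases 63 to 95), and HeT-Tag{}6267 (bases 96 to 133) was in no list. The mean of HeT-Tag{}6290, 12 bases long, was thus 11.5 times that of its neighbour HeT-Tag{}6291, 10 bases long. These means are totals per insertion and were not divided by length.

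In the authors' deposited table HeT-Tag{}6289 and HeT-Tag{}6290 rose 307-fold and 306-fold, and their means and folds imply 2.32 normalized reads each in the heterozygous library. HeT-Tag{}6288, HeT-Tag{}6291 and HeT-Tag{}6292 were listed at 0 in the heterozygous library, so no fold is given for them. HeT-Tag{}6279, the tag also listed with unique reads, was at 76.0-fold there. These insertions are 10 to 33 bases long, so a read counted for one can extend into the next or into HeT-A{}6268, and their values are not independent of each other.

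**Figure D5:**
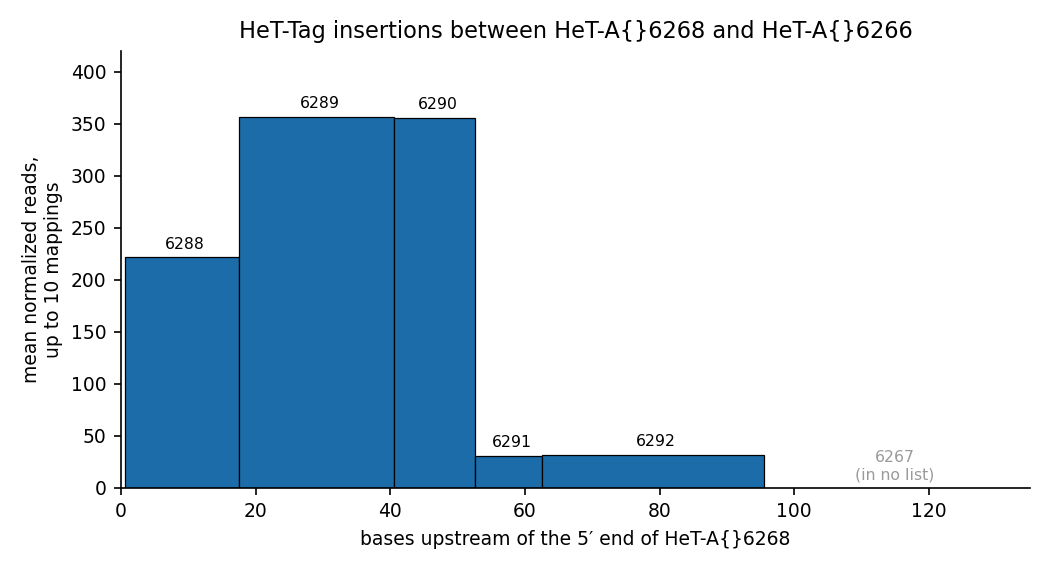
Authors' mean normalized reads with up to 10 mappings (total per insertion, not per base) of the HeT-Tag insertions between HeT-A{}6268 and HeT-A{}6266, by distance in bases upstream of the 5′ end of HeT-A{}6268. Bars span each insertion, and the means are 222 to 357 up to base 52 and 31.1 to 31.9 beyond it.

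Genes around the arrays and genes of the same pathways were looked up in every list. None (0) of the 4 genes within 5 kb of a listed insertion was listed, namely lncRNA:CR40469, which adjoins HeT-A{}4800, CG17636, RhoGAP1A and Cadps. Of 6 genes for telomere capping (among them cav, HipHop, moi, ver and tea, whose products protect the chromosome end) 0 were listed. Of 31 piRNA pathway genes, among them piwi, aub, rhi, zuc and mino, 0 were listed. Their levels were not analysed here.

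Some markers of other cell types and of egg maturation were in the lists of uniquely mapped reads, which hold 57 higher and 23 lower features of an unknown number tested. The sums below cover the listed markers alone. Of 7 fat body markers 4 were listed as higher, with a summed level of 727 normalized reads in the homozygous library, against 49.7 in the heterozygous library. Of 17 muscle markers 5 were listed as higher (6935 homozygous, against 2610.1 heterozygous normalized reads) and of 7 hemocyte markers 1 (670.1 homozygous, against 249.8 heterozygous). Of 18 eggshell genes, which late follicle cells express, 5 were listed as lower, with a summed level of 4598 in the homozygous library, against 14541 in the heterozygous library. None (0) of these listed markers was at 0 reads in a library. In bulk RNA, fewer cells of a type and less RNA per cell cannot be told apart, and the part of such differences in the HeT-A values was not tested.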

How the data were processed

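Per the labels' protocols, total RNA of ovaries was made into libraries with not-so-random priming. Build dm3 and the tools Bowtie 0.12.8, TopHat 1.4.1, DESeq 1.8.2 and bedtools are named in the submitters' processing notes, without their roles. Use of strand in counting was not given in the sources used here. As signal values, the authors deposited read counts normalized per library, per the file headers. Their fold is the ratio of the heterozygous to the homozygous value (inverted here), and their p-value is adjusted, per the file headers.

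Of the 5 deposited lists 4 were used, and the list of piRNA clusters was not. Where isoforms were listed apart, the entry with the highest mean stood for the gene. In the unique lists, values of each library were multiples of 0.865 (homozygous) and 1.16 (heterozygous) normalized reads within 0.001 read, for 143 of 143 values each, which gave reads. Fold intervals are exact conditional binomial (Clopper-Pearson, 95%), computed with scipy 1.17.1 and tested on simulated data. Figures were drawn with matplotlib 3.10.9. The lists hold selected features, so no count model was fitted and no p-values were computed. The 4 per-library columns of the lists of up to 10 mappings carry the names zucMUT and zucCD, which are neither sample's, and were not used. No label says that these lists hold the same comparison, which was inferred from a shared log2 fold difference of −0.0058 in 16 of 26 lower and 18 of 107 higher entries.

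Positions and lengths came from the Ensembl release 115 annotation of dm6, matched by FlyBase identifier (22 of 22), never converted from dm3. All listed HeT-A and HeT-Tag rows were named or counted. Members and lists were chosen with earlier results of these data known. Alternatives varied the fold limit, pseudocount, level, adjusted p, length and read treatment.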

Additional observations from a re-analysis of the deposited data

How the results depend on the processing

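No paired analysis was possible because there was a single library of each genotype, and none could be left out. With unique reads, 9 insertions were at least 10-fold higher. At this limit the number was 7 for insertions with a mean of at least 50 and 7 for those of at least 1 kb. It was 8 for those with an authors' adjusted p under 0.01. Each of these 3 settings leaves out some of the listed insertions. A limit of 4-fold in place of 10-fold was met by 10 insertions. With up to 10 mappings the number at least 10-fold higher was 12 in place of 20 for insertions of at least 1 kb, since short insertions are then left out. The median HeT-A fold with unique reads was 22.4 in place of 54.5 with a pseudocount of 10, which pulls down folds with few heterozygous reads, and 42.4 for copies of at least 1 kb. With up to 10 mappings it was 48.7 in place of 44.2 for the copies also listed with unique reads, and the cause was not tested. A pseudocount of 10 left 6 of 10 single ratios inside their counting intervals, and read treatment left 7. Leaving out HeT-A{}6268 and HeT-A{}6276 gave 38.5 in place of 66.1 for the summed chromosome 4 ratio. Leaving out HeT-A{}5504 gave 36.1 in place of 19.0 for the X chromosome. These omissions followed different rules, which by their choice lower the first ratio and raise the second. No direction changed, but every insertion was taken from a list of higher features, so these settings could not have reversed one. The unchanged direction is thus no test of the result. Depth limits HeT-A{}6253 and HeT-Tag{}6279, each with 1 heterozygous read, at 12.1-fold and 8.10-fold with a pseudocount of 10. It also limits HeT-A{}6278, with 5 heterozygous reads, at 6.44-fold and HeT-A{}6274, with 9, at 37.0-fold with that pseudocount.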
